A study of Mus musculus with 4 samples.

Results

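The genes described here are the enzymes that cut, release, inhibit and crosslink the extracellular matrix, read in brown adipose tissue (BAT) of control mice and of mice labelled as lacking the transcription factor gene Sox4 in the Myf5 lineage. They were chosen by symbol alone, as the matrix metalloproteinases (Mmp), the tissue inhibitors of metalloproteinases (Timp), the Adamts proteases, the lysyl oxidases (Lox and Loxl1 to Loxl4), the collagen lysyl hydroxylases Plod1 to Plod3, the collagen prolyl 4-hydroxylase subunits P4ha1 to P4ha3, the collagen chaperone Serpinh1 and the proteases Fap and Ctsk. The rule gave 60 genes of the 55387 rows in each library. RNA sequencing was performed on BAT of 4 male mice aged 15 weeks on a C57BL/6 background, with 1 library per mouse. The control mice were 2 Sox4f/f littermates, which carry floxed Sox4 without Cre and which the labels call wild type. The other 2 mice were Sox4-MKO, in which a Cre recombinase driven by Myf5 deletes floxed Sox4 in the precursors of brown adipocytes and of skeletal muscle. Cells of other origins in the tissue, such as immune cells, are not the target of this Cre, and the RNA came from whole BAT, although the labels name adipocytes as the cell type. Expression is given in FPKM, which divides the fragments of a transcript by its length in kilobases and by the size of the library. Levels can thus be compared between genes within a library. The FPKM of all rows summed to less in both Sox4-MKO libraries than in both Sox4f/f libraries. Comparisons between mice therefore depend on the scaling, and results under other scalings are given at the end.

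Matrix metalloproteinases are zinc proteases that are secreted or held at the cell surface as inactive proenzymes and cut collagens, fibronectin, elastin and proteoglycans once their prodomain is removed. TIMP proteins bind their active sites and keep them in check, ADAMTS proteases mature procollagen and trim proteoglycans, and lysyl oxidases crosslink collagen and elastin after lysyl and prolyl hydroxylases have modified the chains inside the cell. In adipose tissue this system remodels the matrix around adipocytes and vessels, and much of it is made by fibroblasts and other stromal cells.

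Of the 60 genes, 15 lie on chromosome 9, and 10 of these form the Mmp cluster between 7272514 and 7699585 (GRCm38, GENCODE M21), a stretch of 427.1 kb in the order Mmp13, Mmp12, Mmp1b, Mmp3, Mmp1a, Mmp10, Mmp8, Mmp27, Mmp20 and Mmp7. The promoters of this cluster are shown because 1 of its genes, Mmp3, had the largest log2 fold change of the tested matrix genes on the log2(FPKM + 1) scale, whereas most of its neighbours were at or near 0. RefSeq (GRCm38.p6) promoter windows of 300 bases, from 250 before to 50 after the start of transcription, were at hand for 40 of the 60 genes. The AP-1 motif TGANTCA, the recognition sequence of Fos and Jun proteins, stood in the window of 8 of the 10 cluster genes, in none of the other 30 genes with a window, and in 7.81% of all 32851 windows of that length on either strand. The TATA box letters TATAAA stood on either strand in 9 of the 10 cluster genes (in Mmp8 as TTTATA, on the opposite strand), in 4 of the other 30 and in 13.6% of all windows.

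The stretches below run from 110 bases before to 10 bases after the RefSeq start, 5′ to 3′, with the AP-1 and TATA letters in capitals. Mmp13, Mmp12, Mmp3, Mmp1a and Mmp10 hold both motifs (Mmp12 has another RefSeq window as well, which holds neither and is not shown), Mmp27 is the cluster gene whose window holds neither, and Ctsk on chromosome 3 is shown as a gene outside the cluster that was also higher under the Sox4-MKO label. The RefSeq start of Ctsk lies upstream of its GENCODE start, so that, unlike the other stretches shown, the end of its window was not found in a GENCODE transcript, and its strand is the one RefSeq gives.
Mmp13 (chr9:7272404-7272523, plus strand): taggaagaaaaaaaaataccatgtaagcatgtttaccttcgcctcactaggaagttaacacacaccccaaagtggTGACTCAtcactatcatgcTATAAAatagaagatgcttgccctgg
Mmp12 (chr9:7347264-7347383, plus strand): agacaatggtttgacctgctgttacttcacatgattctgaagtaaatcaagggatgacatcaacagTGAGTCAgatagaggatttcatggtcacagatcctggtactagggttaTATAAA
Mmp3 (chr9:7445712-7445831, plus strand): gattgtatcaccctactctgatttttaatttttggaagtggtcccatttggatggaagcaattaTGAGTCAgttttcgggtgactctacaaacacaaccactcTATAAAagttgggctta
Mmp1a (chr9:7464031-7464150, plus strand): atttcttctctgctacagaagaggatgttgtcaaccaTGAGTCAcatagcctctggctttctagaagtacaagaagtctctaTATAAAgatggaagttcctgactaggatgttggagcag
Mmp10 (chr9:7502232-7502351, plus strand): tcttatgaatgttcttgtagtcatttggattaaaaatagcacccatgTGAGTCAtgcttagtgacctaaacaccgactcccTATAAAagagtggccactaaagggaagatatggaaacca
Mmp27 (chr9:7571286-7571405, plus strand): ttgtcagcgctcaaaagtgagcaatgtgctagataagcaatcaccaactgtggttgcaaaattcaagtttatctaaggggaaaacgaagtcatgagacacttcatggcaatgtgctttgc
Ctsk (chr3:95499100-95499219, plus strand): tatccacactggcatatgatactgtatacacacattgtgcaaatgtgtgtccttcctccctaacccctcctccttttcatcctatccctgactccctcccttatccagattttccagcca

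The AP-1 letters of Mmp3 begin 46 bases before the start and its TATA letters 7 bases before it. The distance from the first letter of AP-1 to the first letter of TATA was 39 bases in Mmp3, 34 in Mmp10, 45 in Mmp1a, 48 in Mmp12, where the TATA letters lie after the RefSeq start, and 19 in Mmp13, with no overlap of the letters. Genes that hold both motifs ranged from 13.7 FPKM (Mmp3) to 0 (Mmp1a and Mmp10) in the same library. The letters ACAAAG, a core recognised by SOX proteins, stood on either strand in 18.7% of all windows, in 6 of the 10 cluster genes and in 2 of the other 30. Genes were counted if any of their windows held the letters. In Mmp12 and Mmp7 only a window whose end was not found in a GENCODE transcript held ACAAAG. CCCNNGGG, a core recognised by EBF proteins, stood in 13.7% of all windows, in 1 of the 10 and in 12 of the other 30. The cluster windows had a GC content of 37.7% (Mmp10) to 52% (Mmp7), against 43.7% (Ctsk) to 80% (Mmp24) outside the cluster. Motifs rich in A and T, or in G and C, depend on this content, and its part in these counts was not tested. Windows were at hand for 6 of the 11 genes that were called higher (Mmp3, Timp2, Ctsk, Adamts2, Adamts12 and Mmp28), of which 1 held AP-1 and TATA, and 0 held the SOX or the EBF core. Such matches are letters in a window and not binding sites.

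Before the comparison, the libraries were checked against their labels. Sox4 had 1.98 and 1.06 FPKM in Sox4f/f mice 1 and 2 and 0.98 and 3.06 FPKM in Sox4-MKO mice 1 and 2. Sox4 mRNA was thus not lower in the libraries labelled Sox4-MKO (log2 fold change 0.20, limma, adjusted p = 0.843), and its sign turned when Sox4-MKO mouse 2 (-0.32) or Sox4f/f mouse 2 (-0.07) was left out, so every direction here follows the labels. The brown adipocyte list holds Ucp1, Cidea, Elovl3 and Ppargc1a, and also Adipoq and Plin1, which are not particular to brown adipocytes. These genes were read in every library and summed to 5443, 5360, 3156 and 3939 FPKM. Skeletal muscle markers summed to 161 and 599 FPKM in Sox4f/f and to 11743 and 2065 FPKM in Sox4-MKO mice 1 and 2, so Sox4-MKO mouse 1 stands apart by its muscle RNA. Depth was estimated at about 12200000 to 16400000 fragments per library.

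In the libraries labelled Sox4-MKO, 11 matrix genes were higher by the study's rule (FPKM averaged over a genotype above 1 in either of them, and an unadjusted p under 0.05), and 0 were lower. They were the proteases Mmp3, Mmp2, Mmp9, Mmp28, Adamts5, Adamts2, Adamts12, Ctsk and Fap, the inhibitor Timp2 and the crosslinking enzyme Loxl1, by 1.71-fold to 3.91-fold in mean FPKM. The filter left 34 of the 60 genes. Over all 12877 genes tested, 7.95% were higher, 8.28% were lower and 16.2% were called in either direction at the same threshold. In the same libraries the summed markers of fibroblasts were 1.76-fold, of macrophages 1.76-fold and of mast cells 3.03-fold those of Sox4f/f, and their part in the differences was not tested. Of the 34 tested matrix genes, 25 (73.5%) had a log2 fold change above 0, against 44% of all genes, and their median was 0.21 against -0.05. The lower of the Sox4-MKO mice lay above the higher of the Sox4f/f mice at 17 of the 34 (50%), against 21.7% of all genes tested, and the reverse order was seen at 0 of 34, against 29.6%. Mmp27 and Timp1, which were not called, passed the filter only through the genotype in which they were higher. Without them 23 of 32 were above 0, 15 of 32 lay apart in that order and the median was 0.20.

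The threshold is lenient. After Benjamini-Hochberg adjustment over all genes tested, 0 genes of any kind were under 0.05 by limma, where 2090 were at an unadjusted p under 0.05, and the adjusted p of the 11 genes lay between 0.191 and 0.236. For a single gene, the smallest p that exact permutation of 2 mice against 2 allows is 0.333 (two-sided). Log2 fold changes are those of log2(FPKM + 1), which understates the change of low genes. In RNA from whole tissue, more cells of a type and more RNA per cell cannot be told apart.

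**Figure D1:**
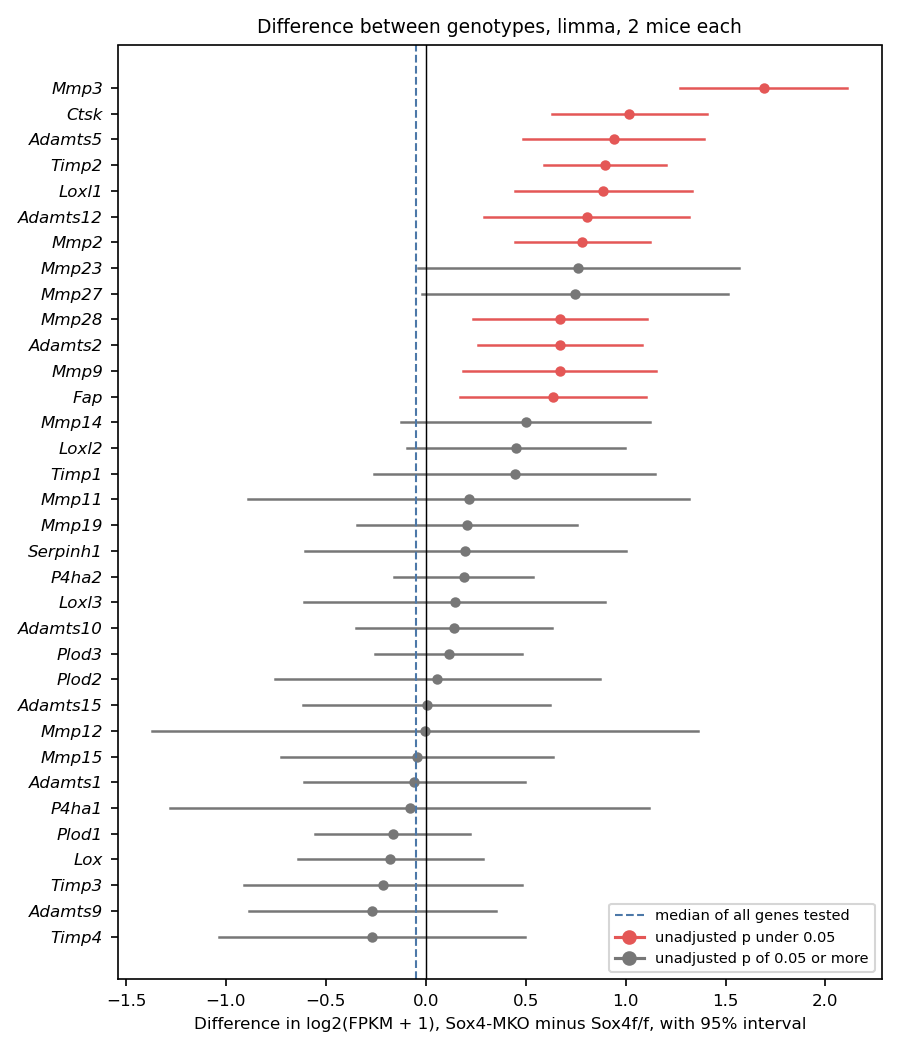
Difference in log2(FPKM + 1) between the genotypes (Sox4-MKO minus Sox4f/f, horizontal axis) for the 34 tested matrix genes, with the limma 95% interval as a line. The 11 genes with an unadjusted p under 0.05 are red and all lie right of 0, Mmp3 farthest at 1.69, and the dashed line marks the median of all genes tested at -0.05.

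Among the Mmp genes, 4 of the 11 tested were called higher and all 23 summed to 56.5 and 70.8 FPKM in Sox4f/f and to 94.6 and 106 FPKM under the Sox4-MKO label, 1.57-fold in the mean. Mmp3 (stromelysin-1, which cuts proteoglycans and fibronectin and activates other proenzymes) lies at chr9:7445822-7455975. It had 3.12 and 3.45 FPKM in Sox4f/f and 12.0 and 13.7 FPKM in Sox4-MKO, means of 3.28 ± 0.232 and 12.8 ± 1.16 (SD, n = 2 mice each), from an estimated 77, 76, 275 and 403 fragments. Both Sox4-MKO mice were far above both controls, and the log2 fold change was 1.69 (SE 0.16, 95% interval 1.27 to 2.11, limma, adjusted p = 0.191). Without Mmp3 the other 22 Mmp genes summed to 53.4 and 67.4 FPKM in Sox4f/f and to 82.6 and 92.1 FPKM in Sox4-MKO, 1.45-fold.

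The gelatinases cut denatured collagen and type IV collagen. Mmp2 (gelatinase A, chr8:92827291-92853420), the Mmp gene with the highest mean over all 4 libraries, had 14.0 and 15.5 FPKM in Sox4f/f and 26.1 and 26.1 FPKM in Sox4-MKO, means of 14.8 ± 1.04 and 26.1 ± 0.0315 (SD, n = 2). Mmp9 (gelatinase B, chr2:164940780-164955850) had 1.94 and 2.09 FPKM against 4.01 and 3.59 FPKM, means of 2.02 ± 0.107 and 3.802 ± 0.297. Both Sox4-MKO mice were above both controls at each gene. The log2 fold change was 0.78 (SE 0.13, adjusted p = 0.196) for Mmp2 and 0.67 (SE 0.18, adjusted p = 0.233) for Mmp9. Mmp9 was no longer called when any library other than Sox4-MKO mouse 2 was left out, with log2 fold changes between 0.61 and 0.71.

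Mmp28 (epilysin, chr11:83440768-83463071) had 5.56 and 4.79 FPKM in Sox4f/f and 9.43 and 8.24 FPKM in Sox4-MKO, means of 5.17 ± 0.545 and 8.83 ± 0.842 (SD, n = 2), with no overlap. Its log2 fold change was 0.67 (SE 0.17, adjusted p = 0.22), and 0.58 and no longer called without Sox4f/f mouse 2 or Sox4-MKO mouse 1 (unadjusted p = 0.0765 and 0.0624). Its exons overlap those of 1700020L24Rik on the opposite strand, a gene with 2.39 and 2.63 FPKM against 1.01 and 1.45 FPKM.

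A further 3 Mmp genes were above both controls in both Sox4-MKO mice without passing the threshold. Mmp14 (MT1-MMP, the membrane protease that activates pro-MMP2 together with TIMP2) had 6.12 and 6.49 FPKM in Sox4f/f and 7.46 and 11.6 FPKM in Sox4-MKO (log2 fold change 0.50, 95% interval -0.12 to 1.12). Mmp23 had 2.86 and 4.23 FPKM against 8.61 and 5.06 FPKM (0.76, -0.04 to 1.57). Mmp27, in the chromosome 9 cluster, had 0.172 and 0.204 FPKM against 0.710 and 1.32 FPKM (0.75, -0.02 to 1.51), from an estimated 4, 5, 17 and 41 fragments. Mmp27 passed the filter through the Sox4-MKO mice alone, so that it had to differ, and its interval and p are no support for a difference. The 2 Sox4-MKO mice differed from each other at all 3, and leaving 1 of them out moved the calls. Without Sox4-MKO mouse 1, Mmp14 reached 0.79 (unadjusted p = 0.0201) and Mmp27 0.97 (0.00932). Without Sox4-MKO mouse 2, Mmp23 reached 1.10 (unadjusted p = 0.0291) and Mmp27 0.53 (0.0435).

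The remaining 4 tested Mmp genes overlapped between the genotypes. Mmp19 was second to Mmp2 over all 4 libraries and above it in the mean of Sox4f/f (15.6 ± 2.52 FPKM, SD, n = 2), with 13.9 and 17.4 FPKM in Sox4f/f and 15.5 and 21.0 FPKM in Sox4-MKO (0.21, -0.35 to 0.76). Mmp15 (MT2-MMP) had 6.78 and 11.01 FPKM against 7.66 and 9.11 FPKM (-0.05, -0.73 to 0.63, and 0.019 after rescaling without mitochondrially encoded genes and Ucp1). Mmp11 (stromelysin-3) had 0.533 and 2.28 FPKM against 1.54 and 1.67 FPKM (0.21, -0.89 to 1.32). Here the controls differed more from each other than the genotypes did, and the Mmp11 exons overlap those of Chchd10 on the opposite strand, which had 949 to 1530 FPKM. Mmp12 (macrophage elastase) had 0.889 and 2.63 FPKM against 0.785 and 2.82 FPKM, so 1 mouse of each genotype was high and the other low (interval -1.37 to 1.36). It is named after its values were seen, as a neighbour of Mmp3. The ratio of Mmp3 to Mmp12 was 3.51 and 1.31 in Sox4f/f and 15.3 and 4.85 in Sox4-MKO.

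**Figure D2:**
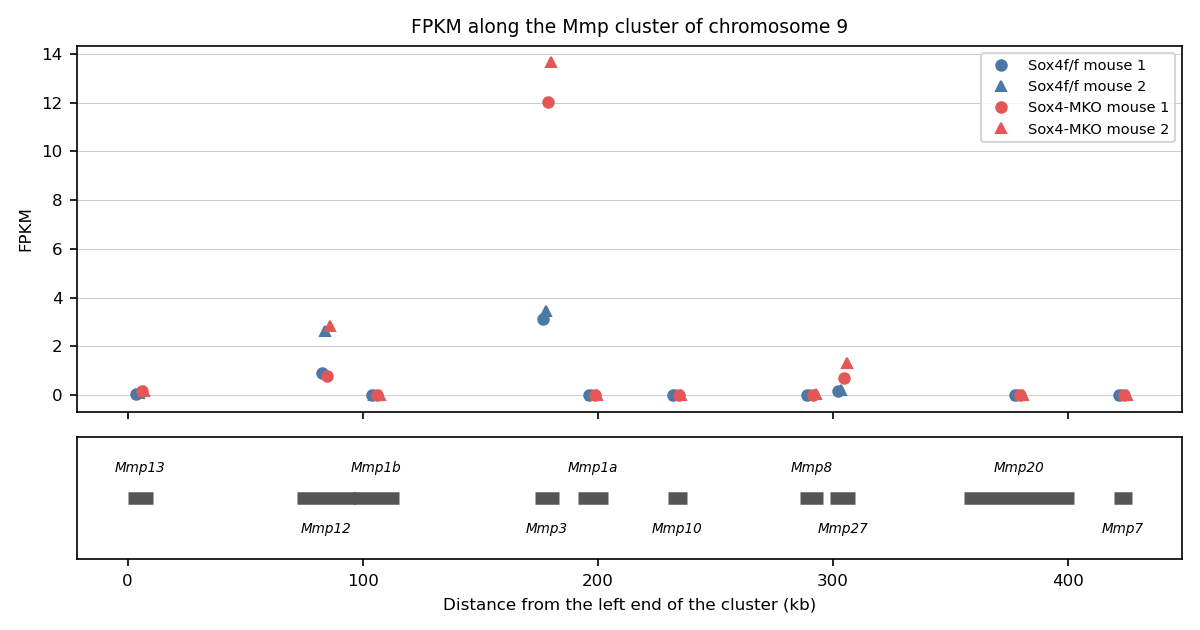
FPKM of the 10 genes of the chromosome 9 Mmp cluster in each library (upper panel), placed by distance in kb from the left end of the cluster, with the gene bodies drawn to scale (lower panel). Mmp3 rises from 3.12 and 3.45 FPKM to 12.0 and 13.7 FPKM in the Sox4-MKO mice, Mmp12 splits by mouse within each genotype, Mmp27 stays at or under 1.32 FPKM and the other 7 genes lie at or near 0.

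The interstitial collagenases Mmp1a, Mmp1b, Mmp8 and Mmp13, which make the first cut in fibrillar collagen, were barely read. Mmp1a and Mmp1b were listed at 0 in every library. Mmp8 was listed at 0 in 3 libraries and at 0.0513 FPKM in Sox4-MKO mouse 2. Mmp13 had 0.0521 and 0.0901 FPKM in Sox4f/f and 0.172 and 0.168 FPKM in Sox4-MKO. An exact 0 in such values can be a failed estimate, so these genes are said to be listed at 0 and not to be silent.

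Ctsk (cathepsin K, a lysosomal cysteine protease that degrades collagen, best known from osteoclasts; chr3:95499256-95509362) had 4.15 and 4.497 FPKM in Sox4f/f and 9.83 and 9.73 FPKM in Sox4-MKO, means of 4.33 ± 0.242 and 9.78 ± 0.0754 (SD, n = 2 mice each). Each genotype was tight and the groups were apart, with a log2 fold change of 1.02 (SE 0.15, adjusted p = 0.196). Of 5 osteoclast markers, 4 were under the FPKM filter, and Acp5, which macrophages also express, had 94.4 and 93.1 FPKM against 119 and 174 FPKM (0.61, adjusted p = 0.274). Fap (fibroblast activation protein, a surface serine protease of activated fibroblasts; chr2:62500943-62574075) had 2.05 and 2.09 FPKM against 3.77 and 3.79 FPKM, means of 2.07 ± 0.027 and 3.78 ± 0.0108. Its groups did not overlap (log2 fold change 0.64, SE 0.18, adjusted p = 0.236), but Fap was no longer called without Sox4f/f mouse 1 (0.63, unadjusted p = 0.0746) or Sox4f/f mouse 2 (0.65, unadjusted p = 0.0682).

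Of the 4 inhibitors, only Timp2 was called. Timp2 (chr11:118301069-118355740), which blocks most MMPs and also takes part in the activation of pro-MMP2, had 20.7 and 21.7 FPKM in Sox4f/f and 40.4 and 40.1 FPKM in Sox4-MKO, means of 21.2 ± 0.671 and 40.2 ± 0.162 (SD, n = 2). The mean was 1.90-fold that of the controls with no overlap, and the log2 fold change was 0.89 (SE 0.12, limma, adjusted p = 0.191). Timp3, the matrix-bound inhibitor that also blocks ADAM and ADAMTS proteases, was the most abundant with 98.9 and 72.9 FPKM against 89.99 and 59.4 FPKM (-0.21, -0.91 to 0.48). Timp4 had 27.5 and 16.9 FPKM against 20.8 and 15.1 FPKM (-0.27, -1.04 to 0.50). Timp1 was lowest with 0.805 and 0.524 FPKM against 1.01 and 1.54 FPKM (0.45, -0.26 to 1.15), from 6 to 22 estimated fragments, and passed the filter through the Sox4-MKO mice alone, so that its interval is a description. For Timp3 and Timp4 the mice of each genotype differed more from each other than the genotypes did, and Timp1, Timp3 and Timp4 each lie within a synapsin gene (Syn1, Syn3 and Syn2) on the opposite strand. Timp1 and Timp4 are outside the naming rule and are given after their values were seen, to complete the family.

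The make-up of the inhibitors differed between the genotypes while their sums overlapped. The 4 Timp genes summed to 148 and 112 FPKM in Sox4f/f and to 152 and 116 FPKM in Sox4-MKO, 1.03-fold in the mean. Timp2 made up 14.0% and 19.3% of this sum in Sox4f/f and 26.5% and 34.6% in Sox4-MKO, Timp3 66.8% and 65.1% against 59.1% and 51.1%, and Timp4 18.6% and 15.1% against 13.7% and 13.0%. The ratio of Timp2 to Timp3 was 0.210 and 0.297 in Sox4f/f and 0.449 and 0.676 in Sox4-MKO. By contrast, the ratio of Mmp2 to its partner Timp2 was 0.677 and 0.716 in Sox4f/f and 0.647 and 0.652 in Sox4-MKO, and the ratio of Mmp14 to Timp2 was 0.295 and 0.300 against 0.185 and 0.289. These ratios were chosen after the values were seen and are descriptions without a test.

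**Figure D3:**
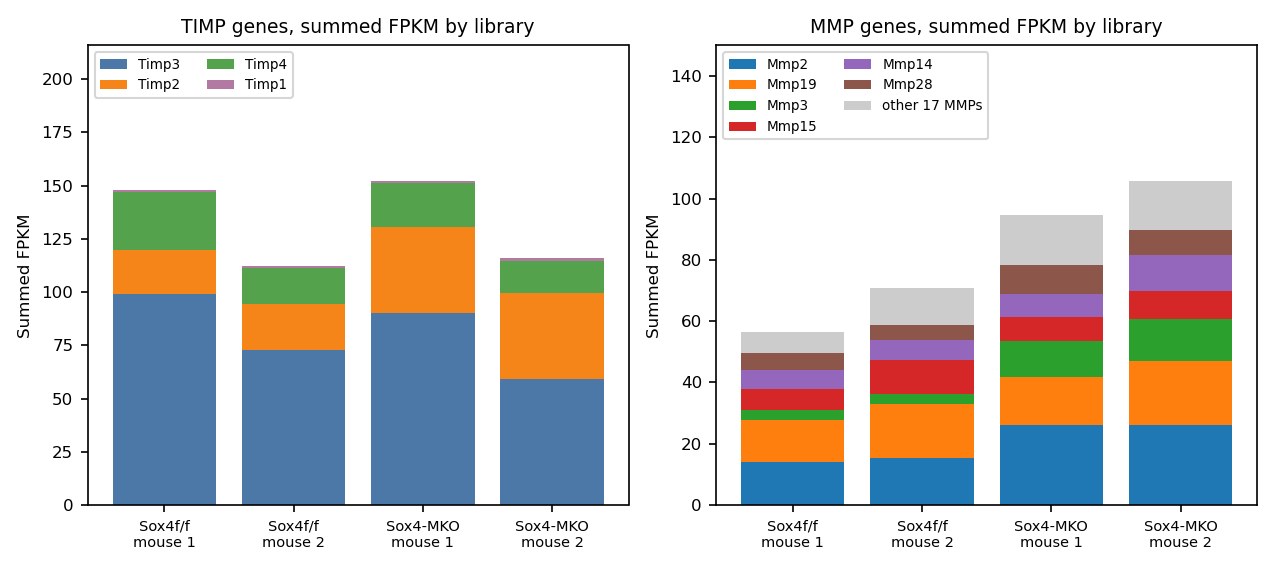
Summed FPKM of the 4 Timp genes (left) and the 23 Mmp genes (right) in each library, stacked by gene. The Timp bars are of like height in both genotypes, from 112 to 152 FPKM, with a taller Timp2 segment in the Sox4-MKO mice, whereas the Mmp bars reach 56.5 and 70.8 FPKM in Sox4f/f and 94.6 and 106 FPKM in Sox4-MKO, with taller Mmp2 and Mmp3 segments.

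Of the 19 Adamts genes, 7 passed the filter and 3 were called higher. Adamts5, an aggrecan- and versican-cutting enzyme, had 2.28 and 2.14 FPKM in Sox4f/f and 4.95 and 5.36 FPKM in Sox4-MKO, means of 2.21 ± 0.103 and 5.16 ± 0.288 (SD, n = 2), a log2 fold change of 0.94 (SE 0.17, adjusted p = 0.196). Adamts2 (chr11:50602084-50807573), which removes the amino-terminal propeptide of fibrillar procollagens, had 4.29 and 3.97 FPKM against 7.46 and 6.90 FPKM, means of 4.13 ± 0.226 and 7.18 ± 0.394 (0.67, SE 0.16, adjusted p = 0.214). Adamts12 (chr15:11064790-11349231) had 1.46 and 1.61 FPKM against 3.18 and 3.68 FPKM, means of 1.53 ± 0.108 and 3.43 ± 0.352 (0.80, SE 0.20, adjusted p = 0.216). At all 3 both Sox4-MKO mice were above both controls. Adamts2 was no longer called without Sox4f/f mouse 2 (0.63, unadjusted p = 0.062) and Adamts12 without Sox4f/f mouse 1 (0.76, unadjusted p = 0.0544).

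The most abundant Adamts genes did not follow Adamts5. Adamts1, its neighbour on chromosome 16 (85793827-85803113 against 85856173-85901828, both on the minus strand) and likewise a proteoglycanase, had 10.2 and 14.2 FPKM in Sox4f/f and 10.5 and 12.6 FPKM in Sox4-MKO (-0.06, -0.61 to 0.49, and 0.0082 after rescaling without mitochondrially encoded genes and Ucp1). Adamts9, a versican-cutting enzyme, had 12.2 and 8.41 FPKM against 7.31 and 9.33 FPKM (-0.27, -0.89 to 0.35). Adamts10, which acts on fibrillin microfibrils, had 6.33 and 8.14 FPKM against 7.46 and 8.64 FPKM (0.14, -0.35 to 0.63). All 3 overlapped between the genotypes. The ratio of Adamts5 to Adamts1 was 0.224 and 0.1504 in Sox4f/f and 0.470 and 0.426 in Sox4-MKO, a pair chosen after the values were seen. Adamts15 also overlapped and stayed between 1.09 and 1.43 FPKM. Its interval ran from -0.61 to 0.62, and its sign turned after scaling to a common median, quantile normalization and the GC content and length correction. As a class the Adamts genes summed to 40.9 and 42.8 FPKM against 46.3 and 51.3 FPKM, 1.17-fold.

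**Figure D4:**
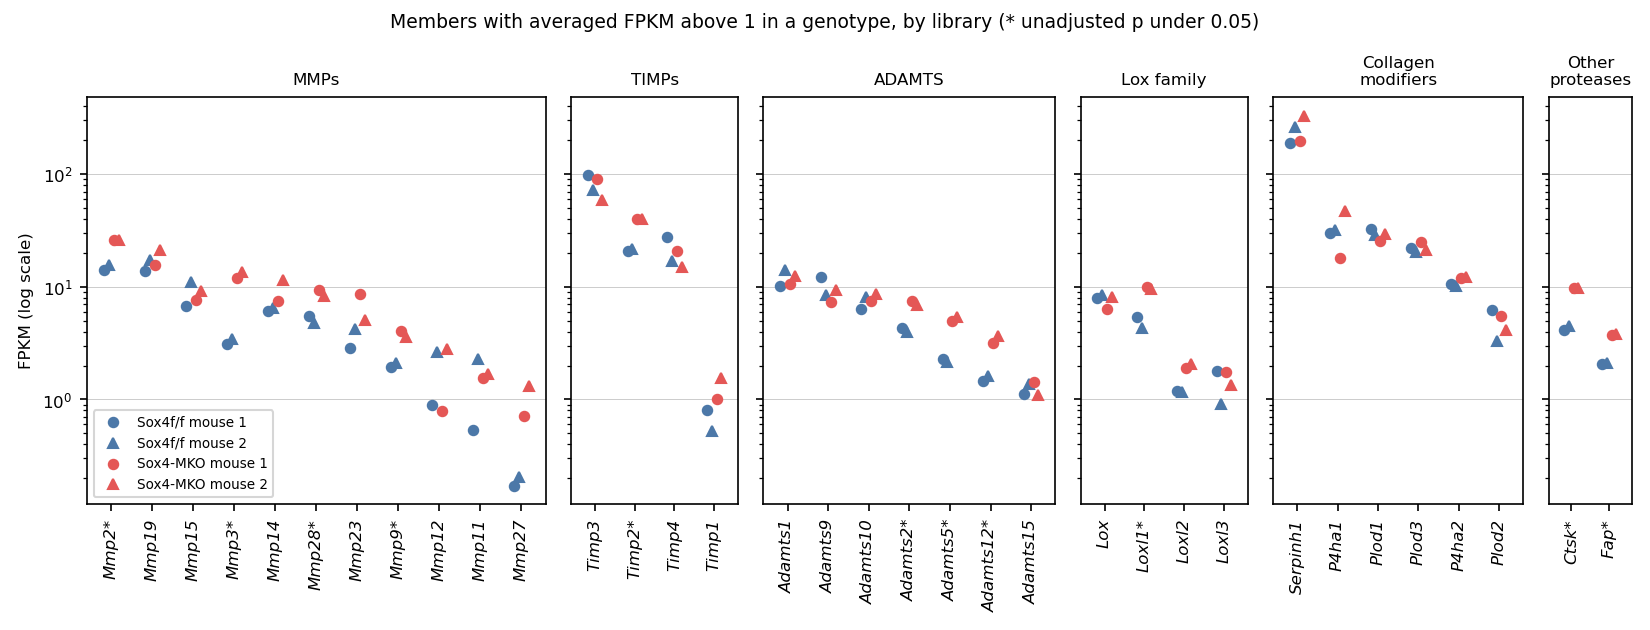
FPKM on a log scale of the 34 tested matrix genes in each library, grouped by class, with circles for mouse 1 and triangles for mouse 2 of each genotype and a star for an unadjusted p under 0.05. The red Sox4-MKO points lie above the blue Sox4f/f points for Mmp3, Mmp2, Timp2, Adamts5, Loxl1, Ctsk and Fap, and are mixed with them for Timp3, Timp4, Adamts1, Lox and Plod1 to Plod3.

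Within the lysyl oxidases, Loxl1 and Lox parted. Loxl1, best known for crosslinking elastin (chr9:58287738-58313186), had 5.35 and 4.30 FPKM in Sox4f/f and 10.01 and 9.48 FPKM in Sox4-MKO, means of 4.83 ± 0.743 and 9.75 ± 0.375 (SD, n = 2), and a log2 fold change of 0.89 (SE 0.17, adjusted p = 0.196). Lox, the founding member of the family (chromosome 18), had 8.03 and 8.43 FPKM against 6.31 and 8.11 FPKM (-0.18, -0.64 to 0.28). The ratio of Loxl1 to Lox, chosen after the values were seen, was 0.667 and 0.510 in Sox4f/f and 1.59 and 1.17 in Sox4-MKO, so Lox was the higher of the pair in the controls and Loxl1 in the Sox4-MKO mice. Loxl2, also named after its values were seen, had 1.19 and 1.17 FPKM against 1.91 and 2.05 FPKM and did not overlap, but its interval reached from -0.09 to 1.00. Loxl3 overlapped (0.14, -0.61 to 0.90, and -0.024 after quantile normalization), and Loxl4 stayed at or under 0.393 FPKM.

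Among the 60 genes, none of those whose products modify or fold collagen inside the cell was called, in either direction (P4hb, which is not among the 60, is given below with the other lists). Serpinh1 (HSP47, the collagen chaperone) was the most abundant of all 60 genes with 189 and 260 FPKM in Sox4f/f and 197 and 329 FPKM in Sox4-MKO (0.20, -0.60 to 1.00). P4ha1, the main catalytic subunit of prolyl 4-hydroxylase, had 30.01 and 32.0 FPKM in the controls and 18.1 and 47.0 FPKM in Sox4-MKO mice 1 and 2. The Sox4-MKO mice thus lay on either side of the controls, and P4ha1 was called higher without mouse 1 (0.59) and lower without mouse 2 (-0.75, unadjusted p = 0.0102). P4ha2 had 10.6 and 10.2 FPKM against 11.9 and 12.1 FPKM without overlap (0.19, -0.16 to 0.53). Plod1 had 32.9 and 28.7 FPKM against 25.3 and 29.4 FPKM (-0.17, -0.55 to 0.22) and Plod3 22.0 and 20.5 FPKM against 24.8 and 21.4 FPKM (0.11, -0.25 to 0.48). The lysyl hydroxylase Plod2 overlapped too, between 3.33 and 6.21 FPKM (0.06, -0.76 to 0.87, and -0.027 after quantile normalization and -0.028 with GC content and length corrected). The 6 Plod and P4ha genes summed to 102 and 94.8 FPKM against 85.7 and 114 FPKM, 1.02-fold, beside 1.57-fold for the Mmp genes.

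The other 26 of the 60 genes were under the filter, and none of their values exceeded 1.25 FPKM (Adamts4, Sox4-MKO mouse 2). Mmp1a, Mmp1b, Mmp7, Mmp10 and Mmp20 were listed at 0 in every library. Mmp8, Mmp16, Mmp21, Mmp24, Adamts8, Adamts13, Adamts18 and Adamts19 were listed at 0 in at least 1 library and reached at most 0.187 FPKM (Adamts8). The 13 genes read in every library were Mmp13, Mmp17, Mmp25, Adamts3, Adamts4, Adamts6, Adamts7, Adamts14, Adamts16, Adamts17, Adamts20, Loxl4 and P4ha3. Among these, Adamts20 had 0.0805 and 0.0205 FPKM in Sox4f/f and 1.06 and 0.163 FPKM in Sox4-MKO, highest in the mouse with the most muscle RNA. Mmp25 had 0.245 and 0.242 FPKM against 0.135 and 0.101 FPKM and was lower without overlap. Mmp17 had 0.338 and 0.347 FPKM against 0.351 and 1.16 FPKM. These were named after their values were seen and were not tested.

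The proteins that act with these enzymes were read from lists of genes that are not among the 60. Counts of calls in these lists, and in the marker lists below, stand beside 7.95% higher and 8.28% lower over all 12877 genes tested. A single call in so short a list is no result about the list. In the plasminogen system, 1 of 6 tested genes was called higher, Plau (urokinase), with 4.93 and 5.20 FPKM in Sox4f/f and 9.68 and 6.91 FPKM in Sox4-MKO (0.60, adjusted p = 0.273), and 0 lower. Among other regulators and activators, 2 of 8 were called higher and 1 lower. The higher were the procollagen C-proteinase enhancers Pcolce (24.5 and 26.9 FPKM against 60.2 and 41.6 FPKM) and Pcolce2 (2.06 and 2.15 FPKM against 5.15 and 4.08 FPKM). The lower was Furin, the proprotein convertase that activates MT1-MMP, with 38.0 and 36.2 FPKM against 26.0 and 29.0 FPKM (-0.42, adjusted p = 0.245). Of the BMP1, tolloid, HTRA and meprin proteases, the 3 tested were all called higher. Bmp1, the procollagen C-proteinase, had 6.69 and 5.83 FPKM against 9.75 and 8.15 FPKM, and the secreted serine proteases Htra3 and Htra1 had log2 fold changes of 1.00 and 0.59.

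The membrane ADAM proteases split evenly, 4 with a log2 fold change above 0 and 4 below, and 1 of 8 was called, Adam33 (1.55 and 1.55 FPKM against 5.33 and 2.51 FPKM). Of the ADAMTS-like proteins, which lack a protease domain, 0 of 5 were called. Of 13 other collagen processing and crosslinking genes, 2 were called higher, P4hb, the beta subunit of prolyl 4-hydroxylase (0.66), and Sparc, a collagen-binding matricellular protein (0.53). Among the substrates, 9 of the 11 tested collagen genes were called higher and 0 lower, led by Col1a1 (32.0 and 30.1 FPKM against 79.3 and 79.9 FPKM), Col3a1 and Col1a2 with log2 fold changes of 1.33, 1.38 and 1.27. Of 14 elastic fibre and proteoglycan genes 8 were called higher and 0 lower, among them fibronectin (Fn1, 1.55), Mfap5 (1.22) and Mfap4 (1.98). Mfap4 had 0.208 and 0.0510 FPKM against 2.50 and 4.64 FPKM and passed the filter through the Sox4-MKO mice alone. So did Vcan in the same list, Tfpi2 and Spock2 among the regulators, P3h2 and Colgalt2 among the collagen processing genes, and the neutrophil marker Retnlg. None of these was called. Mfap4 and these genes had to differ, so their place in the counts of their lists is a description and no support for a difference. The median log2 fold change was 0.74 for the collagens and 0.76 for the elastic fibre and proteoglycan genes, 0.67 for the Mmp genes, 0.14 for the Adamts genes and 0.30 for the lysyl oxidases, against -0.05 for all genes tested. The Mmp median includes Mmp27, and that of the elastic fibre and proteoglycan genes Mfap4 and Vcan, which passed the filter through the Sox4-MKO mice alone.

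Markers of several cell types moved with these genes. All 7 fibroblast markers (Pdgfra, Dpt, Pi16, Cd34, Ly6a, and Fbn1 and Lum, which are also in the elastic fibre and proteoglycan list) were called higher, with log2 fold changes from 0.54 to 1.13, and summed to 185 and 182 FPKM in Sox4f/f and 338 and 308 FPKM in Sox4-MKO, 1.76-fold. Of the 11 matrix genes called higher, 10 had log2 fold changes within the range of the fibroblast markers and likewise of the macrophage markers (0.48 to 1.31), with Mmp3 above both. All 11 lay within that of the mast cell markers (0.40 to 1.93). These lists were chosen because they had moved, and the tested Schwann cell markers, none of them called, span a like range (0.46 to 1.67). The 11 were selected by p and lay between 0.64 and 1.69, and how many other called genes lie within these ranges was not counted. The overlap therefore assigns no gene to a cell type. Of 8 macrophage markers 6 were called higher, and they summed to 126 and 176 FPKM against 287 and 247 FPKM, 1.76-fold. Of 5 tested mast cell markers 4 were called higher, with sums of 13.7 and 16.1 FPKM against 47.9 and 42.2 FPKM, 3.03-fold. Of 3 tested neutrophil markers 1 was called higher, with sums of 3.03 and 3.50 FPKM against 5.96 and 12.0 FPKM, and the defining marker Ly6g was listed at 0 throughout.

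The skeletal muscle list differed most, 5 of its 6 markers being called higher with 18.2-fold the sum of the controls, and Sox4-MKO mouse 1 had 5.69-fold the sum of Sox4-MKO mouse 2. Of 6 endothelial markers 0 were called (sums of 131, 168, 107 and 154 FPKM over Sox4f/f mice 1 and 2 and Sox4-MKO mice 1 and 2), and of 6 smooth muscle and pericyte markers 1 was, Cspg4 (178, 210, 156 and 217 FPKM). None of the 2 tested lymphocyte markers (5.19, 2.68, 2.40 and 6.19 FPKM) and none of the 4 tested Schwann cell markers (98.5, 55.6, 163 and 99.0 FPKM) was called. The Schwann cell sum was nonetheless 1.70-fold that of the controls. The tendon and cartilage markers were all under the filter and summed to between 0.44 and 3.07 FPKM. Of the 6 genes in the brown adipocyte list 3 were called lower, Cidea, Ucp1 and Ppargc1a (log2 fold changes -0.86, -1.06 and -1.21). Elovl3, Plin1 and Adipoq were not called (-0.23, -0.15 and -0.01). The sum of all 6 was 0.657-fold that of the controls. For the 34 tested matrix genes, Mmp27 and Timp1 among them, the median log2 fold change was 0.51 when Sox4-MKO mouse 1 was left out. It was 0.22 when Sox4-MKO mouse 2 was left out and 0.21 with all 4 libraries. The part of the muscle RNA in the differences was not tested.

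**Figure D5:**
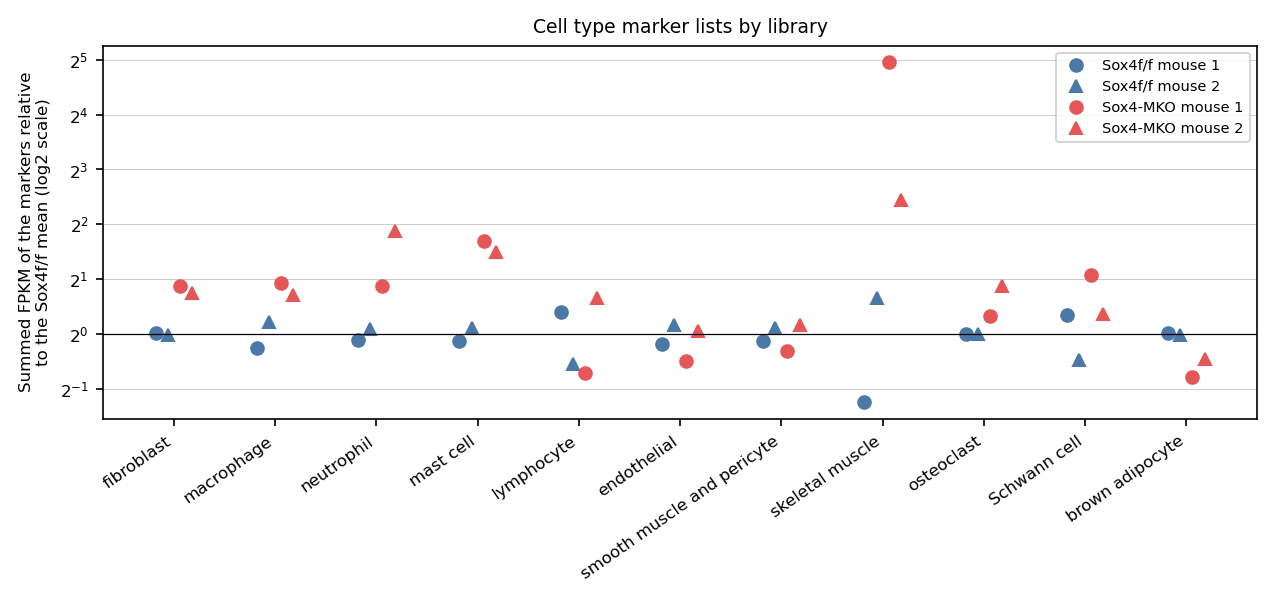
Summed FPKM of 11 cell type marker lists in each library relative to the mean of the Sox4f/f mice, on a log2 axis. The fibroblast, macrophage and mast cell lists lie above 1 in both Sox4-MKO mice, the brown adipocyte list lies below 1, and the skeletal muscle list is highest in Sox4-MKO mouse 1.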

How the data were processed

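RNA sequencing libraries of BAT from 2 Sox4f/f and 2 Sox4-MKO male mice were compared, with 1 library per mouse, grouped by the labels. The methods name TRIzol and a TruSeq library, whereas the labels name an RNeasy column and a stranded kit. The authors deposited FPKM for 55387 rows per library (Cufflinks 2.1.1, Cuffdiff and mm10, per the submitters' processing notes). The aligner, annotation and counting strand are not given in the sources used here. The study's filter was kept (FPKM averaged over a genotype above 1 in either of them), and the genes were tested with limma 3.58.1 (R 4.3.3) on log2(FPKM + 1), modelling genotype alone with a trended prior. A gene was called at an unadjusted p under 0.05 (two-sided), the study's threshold. Benjamini-Hochberg adjusted p-values are over all 12877 genes tested. The genes, lists and tests were chosen with earlier results of these data known. Values are given for genes called, for the 2 most abundant tested genes of each role, for Mmp and Adamts genes without overlap, and for at most 3 called genes per other list. Every other matrix gene given with a value (Adamts15, Loxl3 and Plod2 among them) was named after its values were seen. Symbols were matched to GENCODE M21 (60 of 60) and to RefSeq promoter windows (40 of 60). Depth was estimated from the lowest values of genes with 1 transcript of at least 1500 nt, and is approximate. Alternatives were 3 scalings, a pseudocount of 0.1, a filter at 0.1 FPKM or none, a GC content and length correction (loess, span 0.5), a replicate block, and leaving out each library. Drawings were made with matplotlib 3.10.9.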

Additional observations from a re-analysis of the deposited data

How the results depend on the processing

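The 11 genes called higher kept their direction under all 12 alternatives, and Mmp3, Timp2, Ctsk, Mmp2, Adamts5 and Loxl1 were called under every one. All 11 were called under each scaling, filter, pseudocount, block and correction tried. In the fits with a library left out, the share of all genes called higher also changed from fit to fit. The counts of matrix genes called in those fits are thus a description and no result about these genes. With a library left out, the lone mouse of a genotype is assumed to vary like the other genotype. The count called higher then ranged from 7 (without Sox4f/f mouse 2) to 13 (without Sox4-MKO mouse 2), being 8 without Sox4f/f mouse 1 and 12 without Sox4-MKO mouse 1, the count called lower from 0 to 1, and the median log2 fold change of the tested genes from 0.22 to 0.51, against 0.21 with all 4 libraries, 0.36 with a pseudocount of 0.1, 0.15 with GC content and length corrected, 0.14 with the filter at 0.1 FPKM (47 matrix genes) and 0.12 with no filter (55). No matrix gene was called after adjustment under any alternative, and of all genes 1 was without Sox4f/f mouse 1 and 4 without Sox4f/f mouse 2. Mmp23 was also called after scaling to a common median (0.74), after rescaling without mitochondrially encoded genes and Ucp1 (0.82) and with GC content and length corrected (0.69), and Mmp27 with either looser filter (0.75). Sox4 ranged from -0.32 to 0.71 as single libraries were left out.

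Among genes not called, the sign turned for 13 of 23 under some alternative. Adamts15 moved from 0.0036 to -0.011 (common median), -0.18 (quantile normalization) and -0.033 (GC content and length). Loxl3 was -0.024 and Plod2 -0.027 after quantile normalization, and Plod2 was -0.028 after the GC content and length correction. After rescaling without mitochondrially encoded genes and Ucp1, Adamts1 was 0.0082, Mmp12 0.049 and Mmp15 0.019. With single libraries left out, log2 fold changes ranged from -0.28 to 0.16 for Adamts1, -0.017 to 0.30 for Adamts10, -0.11 to 0.11 for Adamts15, -0.13 to 0.41 for Loxl3, -0.33 to 0.76 for Mmp11, -0.55 to 0.54 for Mmp12, -0.36 to 0.27 for Mmp15, -0.00083 to 0.41 for Mmp19, -0.75 to 0.59 for P4ha1, -0.31 to 0.43 for Plod2, -0.17 to 0.57 for Serpinh1, -0.51 to 0.082 for Timp3 and -0.61 to 0.068 for Timp4. The cause was not tested.

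Over all genes tested, 49.0% of the calls were higher, against 63.9% after rescaling without mitochondrially encoded genes and Ucp1 and 33.6% once GC content and length were corrected. Under these 2 alternatives 0 matrix genes were called lower, where 5.79% and 13.2% of all genes tested were. With the replicate number as a block, 11 matrix genes were called higher and 0 lower, against 7.53% and 7.28% of all genes tested. The sources tie the numbers to no litter or day, so the samples are taken to share only a number. The differences between mice 1 and 2 correlated between the genotypes at -0.01 over all genes tested and at 0.43 over the matrix genes tested. Depth limits Mmp11, Mmp27 and Timp1, which had under 30 estimated fragments in at least 1 library, and the 2 mice per genotype limit every test.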
